A study of Mus musculus with 4 samples.

Results

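The genes described here are 33 mRNAs of the insulin, insulin-like growth factor (IGF), PI3K, AKT and mTOR pathway, followed in RNA pulled down with Flag-tagged Lin28b; the source was a mouse line whose labels call it cancer-associated fibroblasts (CAFs) of the pancreas. Members were chosen by name, as receptors, adaptors, kinases, kinase regulators and targets of this pathway, with earlier results of these data known. Presence in both of the authors' gene tables was part of the rule. That all 33 are among the 13478 genes common to them is therefore not a result. In all there were 4 libraries: RNA immunoprecipitated (IP) with anti-Flag antibody from cells overexpressing wild-type Lin28b, the input RNA of those cells, IP RNA from cells overexpressing a Lin28b mutant described as deficient in RNA binding, and the input RNA of those cells. Both constructs carried the Flag tag, were overexpressed and were set in the same line, which the design text calls 15376CAFs. Each of the 4 groups had 1 library. No difference between libraries therefore has a replicate check, no test between the constructs was possible, and every value below describes single libraries. The design asks which RNAs come down with wild-type Lin28b beyond their level in input, the mutant being the control.

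In this pathway, insulin and IGFs bind receptor tyrosine kinases that recruit adaptor proteins and class I PI3K, a lipid kinase whose product brings PDK1 and AKT to the membrane. AKT then inhibits the TSC complex, which releases the small GTPase Rheb to activate mTORC1, and mTORC1 drives translation through S6 kinases and the eIF4E-binding proteins. Lin28 proteins block the maturation of let-7 microRNAs and also bind mRNAs directly, and mRNAs of insulin-PI3K signalling are a textbook setting of Lin28 and let-7 action.

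Levels are FPKM as read from the deposited values (see the processing part), and recovery is given as the log2 ratio of IP level over input level, each with 0.01 added, so that a ratio of 1 is 2-fold more RNA per unit of sequencing in the IP. The tables of the 2 constructs were normalised separately, which bears on every level set across them. In these units 1 FPKM stood for a mean coverage of 2.79 to 3.25 reads per base, depending on the library. Mean coverage of the members ran from 3.03 for Pik3cd in the wild-type IP to 636 for Igfbp7 in the wild-type input. The depth of the libraries relative to the shallowest was 1.11 for the wild-type IP, 1.16 for the mutant IP and 1.03 for the mutant input. Lin28b RNA itself measured 13.8 FPKM in input RNA of wild-type cells and 30.01 in that of mutant cells. Both tables held 4 of 12 fibroblast markers: in the wild-type and mutant inputs Vim measured 607 and 547 FPKM, but Col1a1 only 0.722 and 0.404 and Pdgfra 1.33 and 0.86. They held 6 of 8 epithelial markers, with summed levels of 2046 and 1381 against 609 and 549 for the fibroblast ones, and 1 of 5 leukocyte markers, 1 of 4 pericyte and smooth muscle markers, and 0 of 5 endothelial and 0 of 4 acinar markers. Single epithelial markers differed between the wild-type and mutant inputs, Muc1 with 134 against 6.77 and Krt7 with 31.7 against 3.32, while Krt18 had 395 against 441. The part of cell identity in the ratios below was not tested.

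The mRNAs of the pathway lay higher in the mutant IP than in the wild-type IP, relative to their inputs, for most members. The log2 ratio was higher with the mutant for 26 of 33 members, against 36.8% of all 13478 genes. The median ratio of the members was −0.14 with wild-type Lin28b and 0.34 with the mutant, whereas over all genes it was −0.28 and −0.59. The median difference, wild-type ratio minus mutant ratio, was −0.49 for the members and 0.32 for all genes. In sign, 12 members were above 0 with both constructs (19.3% of all genes) and 9 were below 0 with both (52.3% of all genes). Another 10 were below 0 with the wild type and above 0 with the mutant (9.91% of all genes). The reverse held for 2, Rheb and Foxo1 (18.5% of all genes).

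Past 2-fold, the counts were small. With wild-type Lin28b, 1 member stood at least 2-fold above input, Pik3c2a (7.74% of all genes), and 5 stood at least 2-fold below it (21.7% of all genes): Igfbp7, Pik3r2, Akt1s1, Rps6kb2 and Eif4ebp1. With the mutant, 4 stood at least 2-fold above input (5.99% of all genes), namely Pik3c2a, Insr, Pdpk1 and Rictor, and 6 stood at least 2-fold below it (37.1% of all genes), the same 5 genes as with the wild type and Rheb. Of these counts, that of mutant genes above input lies over the background percentage and those below input lie under it. The difference between the constructs reached 1 on the log2 scale toward the mutant in 4 members (7.37% of all genes) and toward the wild type in 1, Rheb (26.1% of all genes). These splits depend on where 0 is set, because the median gene lay below its input in both tables. With each table centred on its own median, 4 members stood 2-fold above and 4 below in the wild type, near the 13.5% and 14.1% of all genes, and the wild-type member median became 0.15. With the mutant 15 stood above and 3 below, against 17.4% and 22.5% of all genes. The ratio was then higher with the mutant for 28 of 33 members, against 49.5% of all genes.

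**Figure D1:**
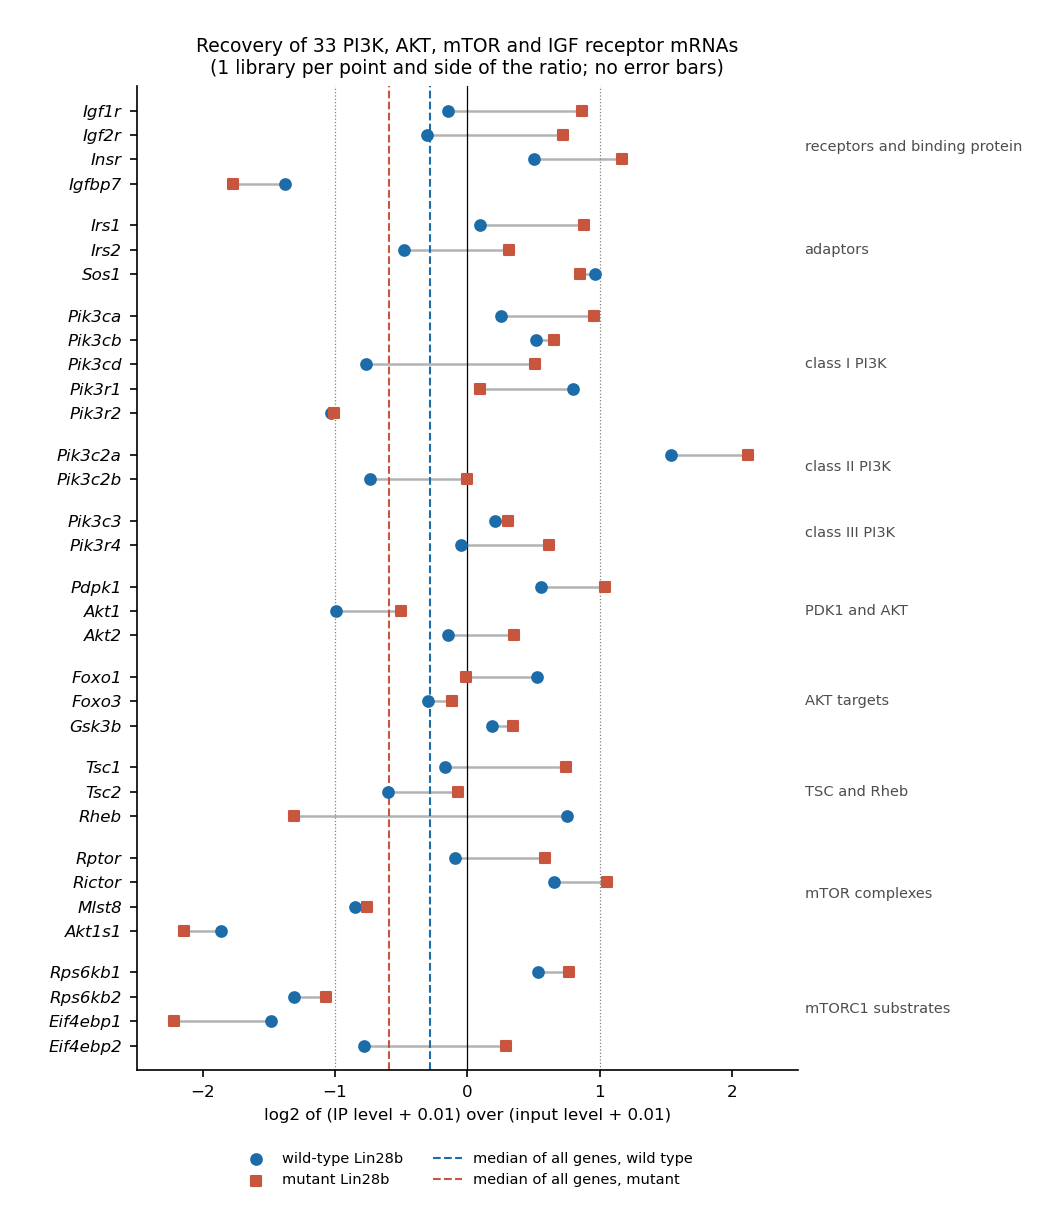
The log2 ratio of IP over input (x axis) is plotted for each of the 33 members (y axis, grouped by role), with circles for wild-type and squares for mutant Lin28b, dotted lines at 2-fold and dashed lines at the medians of all genes. The mutant point lies to the right of the wild-type point for 26 members, and Rheb shows the widest gap in the other direction.

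Among the receptors, all 3 had a higher ratio with the mutant. Igf1r (chr7:67952827-68233668, plus strand, GRCm38), the IGF receptor tyrosine kinase, stood at 22.01 FPKM in the wild-type IP and 24.3 in its input, and at 36.4 in the mutant IP and 19.9 in its input. The wild-type IP thus lay just under its input (−0.14) and the mutant IP above it (0.87). Igf2r (chr17:12682406-12769664, minus strand), which clears IGF2 and sorts lysosomal enzymes, stood at 17.2 and 21.3 in the wild-type IP and input and at 54.0 and 32.6 in the mutant IP and input. Its ratios were −0.30 and 0.73, a difference of −1.03. Insr (chr8:3122061-3279617, minus strand), the insulin receptor, stood at 37.4 and 26.3 with the wild type and at 30.8 and 13.7 with the mutant. The IP exceeded the input with both constructs, 1.42-fold and 2.25-fold, but the mutant IP held less Insr RNA than the wild-type IP and the larger mutant ratio went with an input 1.93-fold lower than in the wild type. The secreted binding protein gene Igfbp7 (chr5:77349240-77408041, minus strand), whose product binds IGFs and insulin, was the most abundant member by mean input and went the opposite way. It stood at 87.7 in the wild-type IP against 228 in input and at 48.4 in the mutant IP against 165 in input, 2.60-fold and 3.42-fold lower. It shares 85 bases with Polr2b on the other strand, and the sources used here do not say whether counting used strand.

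The adaptor genes differed among themselves. Irs1, a docking protein for the activated receptors, stood at 5.20 and 4.86 FPKM in IP and input of wild-type cells and at 23.2 and 12.6 in the mutant IP and input. The inputs differed 2.59-fold, the largest input difference among the members; in RNA from bulk cells, fewer cells expressing a gene and less RNA per cell cannot be told apart. Irs2, its relative, stood at 13.9 and 19.3 with the wild type and at 19.3 and 15.5 with the mutant, with ratios of −0.48 and 0.32. Sos1, the exchange factor that links the receptors to Ras, had nearly the same ratio with both constructs. It stood at 30.3 in the wild-type IP against 15.5 in input and at 27.6 in the mutant IP against 15.3 in input, 1.95-fold and 1.80-fold, just short of the 2-fold mark in both.

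Of the class I PI3K genes, 3 encode catalytic subunits and 2 regulatory subunits. The catalytic gene Pik3ca stood at 16.6 and 13.9 FPKM in IP and input of wild-type cells and at 26.1 and 13.4 with the mutant, ratios of 0.25 and 0.96. Pik3cb was nearer alike, at 9.02 and 6.30 with the wild type and 9.58 and 6.07 with the mutant, ratios of 0.52 and 0.66. Pik3cd, known mainly from leukocytes, had the lowest level of the members in both inputs and in the wild-type IP, at 0.978 and 1.67 with the wild type and 3.91 and 2.73 with the mutant. Its difference of −1.28 was the largest toward the mutant among the members, at rank 613 of 13478 genes on that side, and it rests on mean coverages of 3.03 to 12.7. With a pseudocount of 1 its difference was −0.83, and the members with a difference of 1 or more toward the mutant numbered 1, Eif4ebp2, in place of 4. The regulatory gene Pik3r1, whose product holds and inhibits the catalytic subunit until a receptor is active, had the opposite order. It stood at 12.6 and 7.23 in the wild-type IP and input and at 9.86 and 9.22 with the mutant, ratios of 0.80 and 0.10. Its paralogue Pik3r2 was lower in the IP with both constructs, at 25.1 and 51.3 with the wild type and 19.0 and 38.2 with the mutant, 2.05-fold and 2.01-fold lower. Both calls were lost with centring, at −0.74 and −0.40 on the table median and −0.50 and −0.08 on the median of genes of like span, and the mutant one also with a pseudocount of 1 (−0.97).

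Pik3c2a (chr7:116337265-116443449, minus strand), a class II PI3K that makes phosphoinositides on endocytic membranes, had the highest ratio of the members with both constructs. It stood at 74.9 FPKM in the wild-type IP against 25.7 in input and at 119 in the mutant IP against 27.2 in input. The inputs were within 1.06-fold of each other while both IPs lay far above them, 2.91-fold in the wild type (rank 385 of 13478 genes) and 4.36-fold with the mutant (rank 124). Its paralogue Pik3c2b stood at 6.90 and 11.5 with the wild type and at 8.62 and 8.61 with the mutant, with ratios of −0.73 and 0.00139, so that the class II pair was split with either construct. The class III kinase gene Pik3c3, which acts in autophagy and endosomal sorting, had ratios of 0.21 and 0.31, and Pik3r4, which encodes its regulatory subunit, −0.05 and 0.61.

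Downstream of PI3K, the kinase genes ran from above to below input. Pdpk1, which encodes the PDK1 kinase that activates AKT, stood at 28.3 and 19.3 FPKM in IP and input of wild-type cells and at 30.3 and 14.7 with the mutant, ratios of 0.56 and 1.04. Akt1, among the 3 most abundant members by the mean of both inputs with Igfbp7 and Pik3r2, stood at 41.4 in the wild-type IP against 82.6 in input and at 69.7 in the mutant IP against 98.5 in input. Both IPs lay below input, by 1.99-fold with the wild type and 1.41-fold with the mutant. Akt2 stood closer to input, with ratios of −0.15 and 0.35. Of the genes for AKT targets, the transcription factor gene Foxo1 stood at 19.3 and 13.4 with the wild type and 12.6 and 12.7 with the mutant, ratios of 0.53 and −0.01, and Foxo3 had −0.29 and −0.12. The inputs of Foxo3 differed 2.14-fold, with 21.9 with the wild type and 10.2 with the mutant. Gsk3b, which encodes a kinase that AKT inhibits, had ratios of 0.19 and 0.34.

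Rheb (chr5:24802823-24842624, minus strand), the GTPase that activates mTORC1, was the member whose recovery differed most between the constructs. It stood at 51.1 FPKM in the wild-type IP against 30.3 in input, and at 12.8 in the mutant IP against 31.7 in input. The inputs were within 1.05-fold of each other, whereas the wild-type IP held 4.01-fold more Rheb RNA than the mutant IP. The ratios were 0.75 and −1.31 (−0.71, short of 2-fold, where the mutant table was centred on its median), a difference of 2.07, which ranked 1192 of 13478 genes on the wild-type side. Over the pseudocounts and centrings tried, the difference lay between 1.76 and 2.07. The genes of the complex that restrains Rheb did not share this order. Tsc1 stood at 8.57 and 9.63 in the wild-type IP and input and at 17.2 and 10.2 with the mutant, ratios of −0.17 and 0.75, and Tsc2, which encodes the GTPase-activating subunit, had −0.60 and −0.07. Tsc2 shares 693 bases with Pkd1 on the other strand.

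The genes of the mTOR complexes ran from above to below input. Rptor, which encodes the substrate-recruiting subunit of mTORC1, stood at 13.4 and 14.2 FPKM in IP and input of wild-type cells and at 28.5 and 18.9 with the mutant, ratios of −0.09 and 0.59. Rictor, which encodes the defining subunit of mTORC2, stood at 26.5 and 16.9 with the wild type and at 20.3 and 9.80 with the mutant, ratios of 0.65 and 1.05. With a pseudocount of 1 the mutant ratios of Rictor and Pdpk1 fell just short of 2-fold, at 0.98 and 0.997. As for Insr, the mutant IP level of Rictor lay under the wild-type IP level and the larger mutant ratio went with an input 1.72-fold lower. Mlst8 and Akt1s1, the 2 shortest members, lay below input with both constructs. Mlst8, a subunit of both complexes, had ratios of −0.85 and −0.76. Akt1s1 (chr7:44848991-44855421, plus strand), which encodes an mTORC1 inhibitor that AKT phosphorylates, stood at 7.25 against 26.3 with the wild type and at 5.40 against 23.8 with the mutant, 3.62-fold and 4.4-fold lower. It had the lowest wild-type ratio of the members, −1.86.

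The mTORC1 substrates formed 2 pairs of paralogues whose members differed from each other. Rps6kb1, an S6 kinase gene, stood at 19.6 and 13.5 FPKM in IP and input of wild-type cells and at 28.0 and 16.4 with the mutant, ratios of 0.53 and 0.77. Rps6kb2 (chr19:4153991-4163354, minus strand), the other S6 kinase gene, stood at 4.78 against 11.9 and at 3.58 against 7.52, 2.48-fold and 2.1-fold lower. The mutant call was lost on the table median (−0.46), on the span class (−0.14) and with a pseudocount of 1 (−0.90), and the wild-type call on the span class (−0.78). In the tables its span shares 45 bases with the much more abundant Coro1b on the other strand. It also shares 2761 bases, 29.5% of its span, with Ptprcap on the other strand. Ptprcap measured 0.103 to 0.204 FPKM over the 4 libraries. Eif4ebp1 (chr8:27260329-27276674, plus strand), which encodes a repressor of cap-dependent translation, stood at 12.8 against 35.7 with the wild type and at 9.18 against 42.7 with the mutant, 2.79-fold and 4.65-fold lower, the lowest mutant ratio of the members (−2.22). Its paralogue Eif4ebp2 stood at 20.4 against 35.0 with the wild type and at 29.4 against 24.0 with the mutant. Its ratios of −0.78 and 0.29 differed by −1.07, so the pair was on the same side of input with the wild type and on opposite sides with the mutant.

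**Figure D2:**
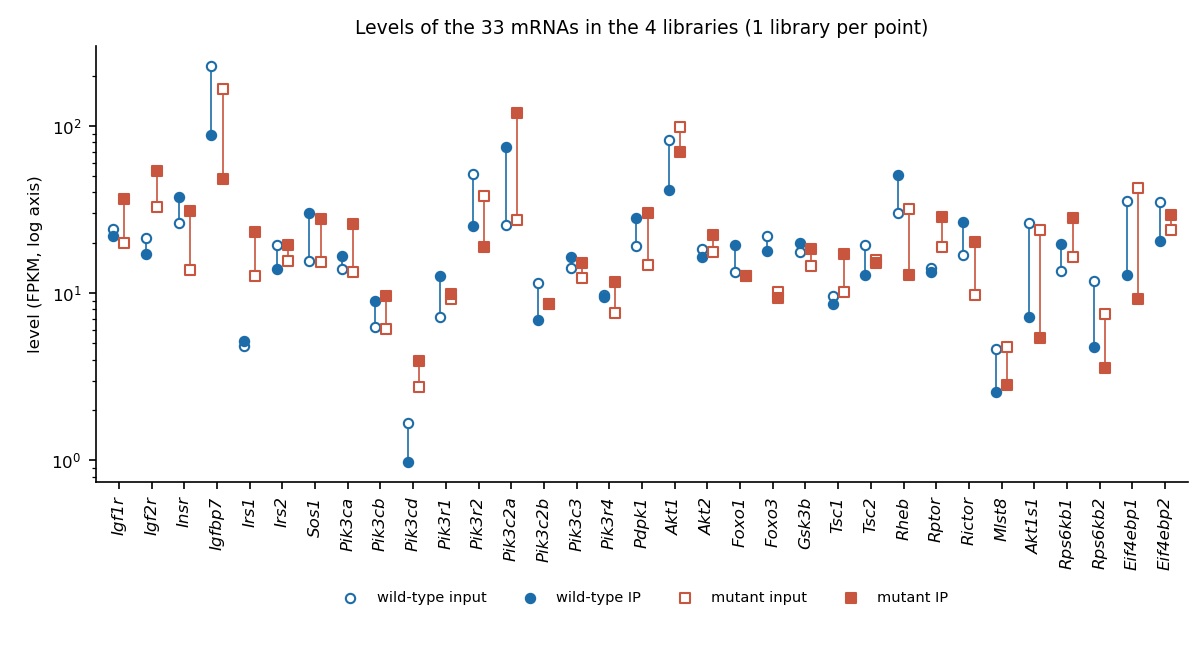
Levels of the 33 members (x axis) in FPKM on a log axis are plotted with open symbols for input and filled symbols for IP, blue circles for the wild type and red squares for the mutant, 1 library per point. Pik3c2a lies furthest above its input in both IPs, and Rheb lies above input in the wild-type IP and below it in the mutant IP.

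Recovery went with the span of the gene from its annotated start to end. The members had a median span of 58.8 kb, against 18.4 kb for all genes. The 8 members with spans up to 25 kb (a limit chosen after the values were seen; Irs2, Pik3r2, Akt1, Mlst8, Akt1s1, Rps6kb2, Eif4ebp1 and Eif4ebp2) all lay below input in the wild type, and 6 of them with the mutant, where Irs2 and Eif4ebp2 were the exceptions. Their median ratios were −1.01 and −0.88. The 25 longer members had medians of 0.19 and 0.61. All genes showed a like order, with medians of −0.56 and −1.07 up to 25 kb and of 0.03 and −0.05 above it. Across the 33 members, Spearman's rho of span and ratio was 0.633 with the wild type and 0.624 with the mutant, and across all genes 0.341 and 0.508, given as descriptions since genes of a library share its preparation. Among members longer than 25 kb, 20 of 25 had the higher ratio with the mutant, against 47.2% of all genes of that size. With each ratio centred on the median of genes in the same span class (10 classes of equal size), 25 of 33 members were higher with the mutant, against 49.3% of all genes, and the median difference stayed at −0.49. On that scale 1 member stood 2-fold above its span class in each construct, Pik3c2a, against 12.7% of all genes with the wild type and 13.7% with the mutant. Those 2-fold below were 3 in each: Igfbp7, Akt1s1 and Eif4ebp1 with the wild type (11% of all genes) and Igfbp7, Eif4ebp1 and Rheb with the mutant (17.2%). Insr, Pdpk1 and Rictor fell short of 2-fold there with the mutant, at 0.93, 0.95 and 0.96, as did Akt1s1 at −0.87.

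**Figure D3:**
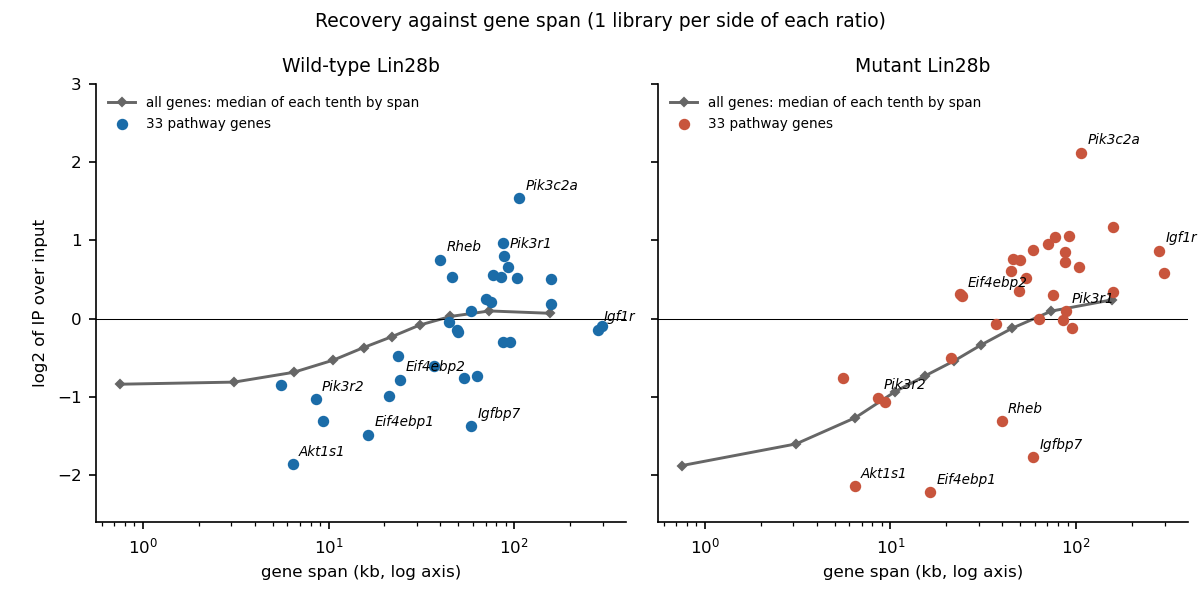
The log2 ratio of IP over input (y axis) is plotted against gene span in kb (x axis, log scale) for the wild type (left) and the mutant (right); points are the 33 members and the grey line joins the medians of all genes in each of 10 span classes. In the mutant panel most members longer than 25 kb lie above the grey line, and Igfbp7 and Rheb lie furthest below it among them.

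The peak lists gave the places along the genes where the authors called peaks. Whether the inputs were the control in calling is not stated, so a peak here does not by itself mean enrichment over input. A peak was counted for a gene where its summit lay inside the gene span on the gene's strand. In the wild-type list 13 of 33 members carried a peak, against 25.1% of all genes, with 78 peaks in all. In the mutant list 16 of 33 did, against 18.6% of all genes, with 131 peaks. These all-gene shares were not matched for span or input level. Members were longer, with a median span of 58.8 kb against 18.4 kb for all genes. Their median input level was also higher, at 17.5 FPKM against 8.56 in wild-type input and 14.7 against 8.82 in mutant input. Whether members carry a peak more often than genes of like span and level was not tested. Both lists held peaks in 11 members, the mutant list alone in 5 (Igf2r, Pik3cb, Pik3r4, Tsc1 and Rptor), the wild-type list alone in 2 (Rheb and Pik3r1), and 15 members had none. The mutant list was the longer one, with 15931 peaks against 11912, and shortened by q-value to the wild-type length it held a peak in 13 members and 99 peaks in all. Members with a peak had a median ratio of 0.53 with the wild type and 0.81 with the mutant, and members without had −0.67 and −0.12.

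Of the wild-type peaks in the members 64 of 78 (82.1%) overlapped a mutant peak by at least 1 base, against 49.6% of the whole wild-type list. Of the mutant peaks 58 of 131 (44.3%) overlapped a wild-type peak, against 36.2% of the whole mutant list. The summits of overlapping pairs lay close together, a median of 15 bases apart, with 45 of 64 within 50 bases. Pik3c2a supplied 24 of these 45, and in Pdpk1, by contrast, 0 of 5 pairs lay that close (median 925 bases) and in Rps6kb1 2 of 5 (median 302). More peaks lay near the 3′ end of the genes than near the start. Summits lay in the last 10% of the span for 36 of 78 wild-type and 48 of 131 mutant peaks, and in the leading 10% for 1 and 4. The rest, more than those in the last 10%, lay between. The same shares over all peaks of the lists were not counted, so this is not shown to be particular to the members.

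**Figure D4:**
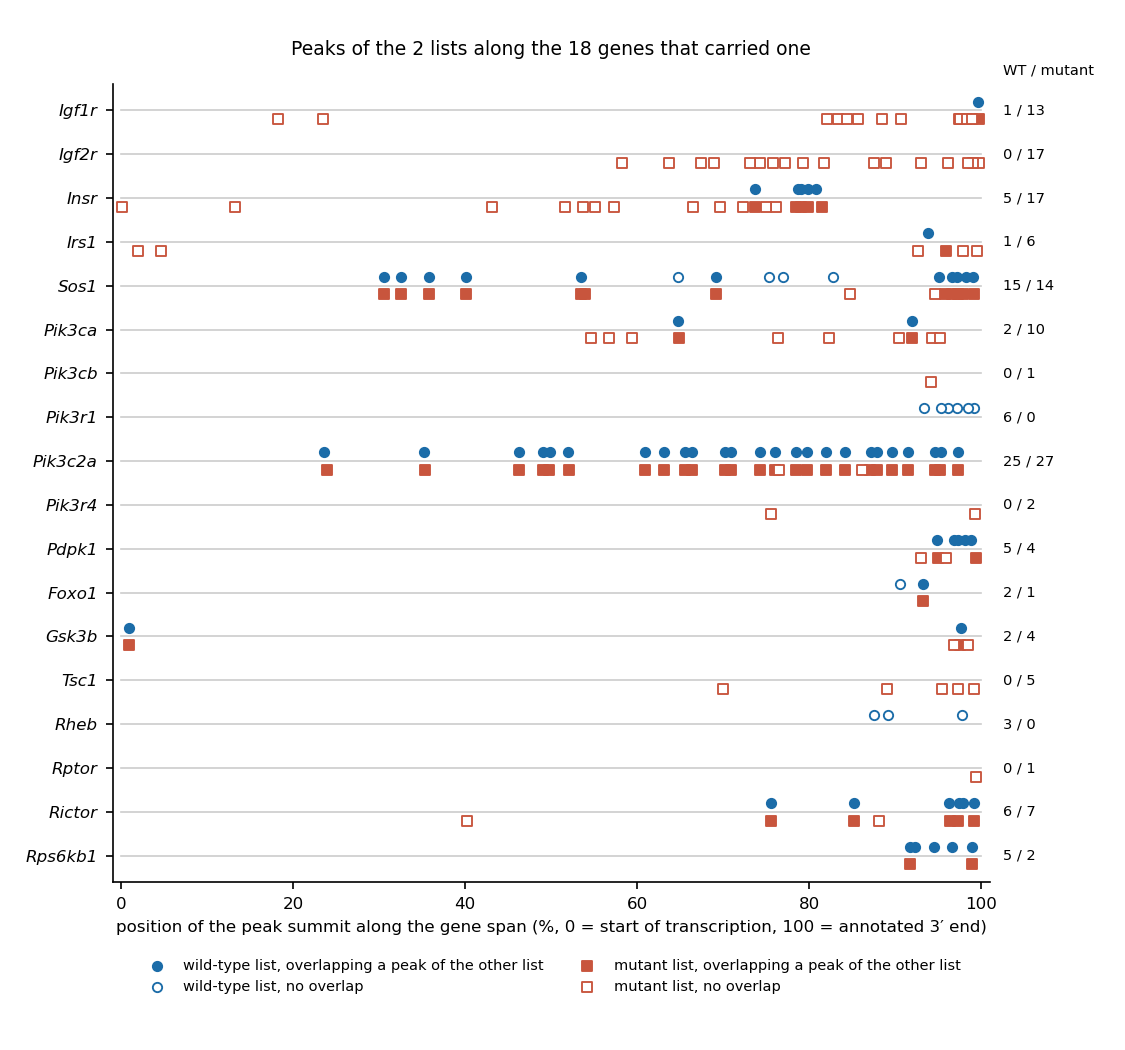
For the 18 members with a peak (y axis), the position of each peak summit along the gene span is plotted in percent (x axis, 0 at the start and 100 at the annotated 3′ end), with blue circles for the wild-type list above the line and red squares for the mutant list below it; filled symbols overlap a peak of the other list, and the numbers at the right are wild-type and mutant peak counts. Pik3c2a and Sos1 carry matching series with both constructs, Igf1r, Igf2r and Insr carry mostly open mutant symbols, and Rheb and Pik3r1 carry open wild-type symbols alone.

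Pik3c2a and Sos1 together held 40 of the 78 wild-type and 41 of the 131 mutant peaks. Pik3c2a carried 25 wild-type and 27 mutant peaks, and all 25 of the former overlapped one of the latter, with a median of 6 bases between summits. The wild-type summits stretched from 23.6% to 97.3% of the span, and near its 3′ end a peak of 2955 bases with the wild type and 2958 with the mutant covered nearly the same stretch (chr7:116337428-116340382 and chr7:116337429-116340386). By the authors' own fold at the summit, the strongest Pik3c2a peak was chr7:116368058-116368362 in the wild-type list, with 35.5, and chr7:116364480-116364785 in the mutant list, with 21.2. Sos1 carried 15 and 14 peaks, of which 11 and 12 overlapped. The highest authors' fold of any wild-type peak in the members was in Sos1, 44.9 at chr17:80452056-80452357, beside another of 20.6 at chr17:80449292-80449540. The mutant list had peaks at both places, with authors' folds of 11.1 and 15.1.

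The receptor genes carried most of the peaks found in the mutant list alone. Igf1r, Igf2r and Insr held 6 wild-type and 47 mutant peaks together. Igf2r had 0 and 17, spread from 58.3% to 99.7% of the span with authors' folds up to 5.24. Igf1r had 1 and 13. Its wild-type peak, chr7:68232406-68232662, lay 1081 bases from the 3′ end, and 5 of the mutant peaks stood within 10 kb of that end, 1 of them of 2270 bases (chr7:68229949-68232218). Insr had 5 and 17, and all 5 wild-type peaks overlapped mutant ones. The main group of Insr peaks began at chr8:3151000 in the mutant list and chr8:3151025 in the wild-type list, far inside the end of the gene in the tables but next to the end of the gene in RefSeq at 3150922. The mutant peak nearest to the end had its summit 29103 bases from the former and 242 from the latter. Of the other members with more mutant than wild-type peaks, Irs1 had 1 and 6, Pik3ca 2 and 10, Tsc1 0 and 5 and Gsk3b 2 and 4. Pik3ca held the highest authors' folds among its peaks at chr3:32455903-32456116 (11.2) and chr3:32451619-32451853 (9.89), both in the mutant list alone.

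On the strand opposite to Igf2r lies Airn, a noncoding RNA that starts inside Igf2r and is known for silencing the paternal Igf2r allele. The Airn gene (chr17:12741311-12860136, plus strand) overlaps 28354 bases of Igf2r. Within the Igf2r span the mutant list held 24 peaks on the Airn strand, between 1.07% and 32.3% of the Igf2r span and so apart from the Igf2r peaks, and the wild-type list held 0. Over the whole of Airn the counts were 37 and 0. Airn stood at 3.12 FPKM in the wild-type IP against 2.98 in input and at 6.33 in the mutant IP against 2.45 in input, ratios of 0.07 and 1.36. Since strand use in counting is not stated, reads of Igf2r and Airn in the stretch they share may not be told apart in the gene levels.

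Rheb and Pik3r1 were the members with peaks in the wild-type list alone. Rheb had 3 wild-type peaks, at chr5:24803399-24803916, chr5:24807060-24807260 and chr5:24807623-24807955, between 87.5% and 97.7% of its span, with authors' folds of 2.99, 3.17 and 6.19. Pik3r1 had 6, all between 93.3% and 99.1% of its span (from chr13:101681046 to chr13:101686504), with authors' folds from 2.48 to 5.87. Its mutant IP level was 1.28-fold under its wild-type IP level. Foxo1 had 2 wild-type peaks and 1 mutant peak, whose summit fell on that of a wild-type peak of 1536 bases (chr3:52346871-52348406, authors' fold 5.92). Pdpk1, Rictor and Rps6kb1 had 5 and 4, 6 and 7, and 5 and 2 peaks, and their wild-type peaks all overlapped mutant ones. Broad mutant peaks covered several wild-type peaks there: that of 2320 bases in Pdpk1 covered 4, and that of 2924 bases in Rps6kb1 covered 4. None of Igfbp7, Irs2, Pik3cd, Pik3r2, Pik3c2b, Pik3c3, Akt1, Akt2, Foxo3, Tsc2, Mlst8, Akt1s1, Rps6kb2, Eif4ebp1 and Eif4ebp2 carried a peak in either list.

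Other genes of the pathway were followed in a list of 89, of which 74 were in both tables. In the wild type 2 of 74 stood at least 2-fold above input and 9 below it (7.74% and 21.7% of all genes), and with the mutant 6 above and 20 below (5.99% and 37.1%). The ratio was higher with the mutant for 39 of 74, against 36.8% of all genes, with a median difference of −0.03. A difference of at least 1 lay toward the wild type in 15 of them (26.1% of all genes) and toward the mutant in 2 (7.37%), whereas the 33 members had 1 and 4. These other genes had a median span of 29.4 kb against 58.8 kb for the members, and the comparison was not matched for span. Among those named by size of ratio were 4 genes of the Ragulator complex, which anchors mTORC1 at lysosomes. Lamtor2, Lamtor1, Lamtor5 and Lamtor4 had ratios of −1.24, −0.85, −0.94 and −1.93 with the wild type. With the mutant they had −3.09, −2.72, −2.68 and −2.44. Lamtor3, of the same complex, was short of 2-fold with both constructs, at 0.09 and −0.85. The Ras gene Hras had −1.06 and −2.46, the ribosomal protein gene Rps6 −0.87 and −2.39, the mTORC2 subunit gene Prr5 −1.69 and −2.36, Tbc1d7, whose product joins the TSC complex, −0.98 and −2.15, and the arginine sensor gene Castor1 −1.36 and −1.81. Lamtor2, Lamtor4, Lamtor5, Hras, Rps6 and Castor1 spanned 3.3, 3.9, 5.2, 4.9, 2.8 and 4.2 kb. Lamtor1, Tbc1d7 and Prr5 spanned 20.8, 19.8 and 34.1 kb. All genes of 1.6 to 4.7 kb had medians of −0.81 with the wild type and −1.60 with the mutant. Those of 4.7 to 8.5 kb had −0.69 and −1.27. How far span bears on the ratios of these named genes was not tested. In the wild-type table Igfbp6 was listed at 0 for input and at 0.107 for the IP, too low for a fold. The gene for mTOR itself, Mtor, was chosen after its values were seen. It had ratios of 0.07 and 1.02, with 1 wild-type and 8 mutant peaks.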

How the data were processed

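RNA of 2 IP and 2 input libraries was analysed from the deposited gene tables and peak lists. Per the submitters' processing notes bedtools, HOMER 4.11.1, MACS2 2.2.7.1 and HISAT2 2.1.0 were used, with builds mm10 and GRCm38, without stated roles; the RNA kit marks strand per the labels' protocols. The authors deposited levels per gene, read here as FPKM since the file headers do not name the unit, and the authors' log2 ratio of IP over input, which equals log2 of both levels plus 0.01 within 1.57e-09. The deposited peak lists give a score, a fold (ratio) at the summit, and p- and q-values as −log10, per the file headers or format; the sources used here do not say whether inputs were the control. The p-value and q-value columns of the deposited gene tables are not printed.

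In genes whose level times span fell on whole multiples of a step (within 0.1 of a step; 95.8% to 97.2% of processed pseudogene values, by library), the step gave the mean coverage per FPKM. From the levels, log2 ratios, differences (wild type minus mutant), 2-fold counts, peak counts and overlaps (at least 1 base, same strand) were computed over the 13478 genes in both tables with Python 3.11.15, pandas 2.3.3, numpy 2.4.6 and scipy 1.17.1, and checked on simulated data. All 33 members matched RefSeq (GRCm38.p6) by symbol. With 1 library per group there was no test. The 2 tables were normalised separately. Every member is named; 4-library levels are given for members past 2-fold, with a difference of 1 or more, at the extremes, most abundant, or paralogues of these. Peaks are described for members with the most peaks and highest folds. Other pathway genes are named where past 2-fold, at most 10, with Mtor and Lamtor3 added. Some genes of that list are not reported here. Members, gene lists and rules were chosen with earlier results of these data known. Alternatives were other pseudocounts, a minimum level, centring, a 1.5-fold limit, and stricter peak and overlap rules.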

Additional observations from a re-analysis of the deposited data

Results flagged for a closer look

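For 5 members the 2 constructs gave IP over input ratios that differed by 1 or more on the log2 scale and lay on opposite sides of input. With 1 library each, the difference was not tested for any of them. Rheb was above input with the wild type and below it with the mutant, a difference (wild type minus mutant) of 2.07. The other 4 were below input with the wild type and above it with the mutant: Pik3cd differed by −1.28, Eif4ebp2 by −1.07, Igf2r by −1.03 and Igf1r by −1.01. The sides of input are those before any centring. Centred on the span class, the difference of Igf1r was −0.84, short of 1. On that scale Irs2 (−1.11) and Tsc1 (−1.07) passed 1 toward the mutant.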

How the results depend on the processing

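No paired analysis was possible because each group had 1 library; for the same reason no library could be left out. Depth limits Pik3cd most. The count of members with the higher ratio in the mutant ran from 25 to 28 over all settings, and the peak counts stayed within 1.5 times of those reported. Centring each table on its median put 4 wild-type members 2-fold above that median (13.5% of all genes). With the mutant 15 stood above it and 3 below (17.4% and 22.5% of all genes). Member medians became 0.15 (the wild-type median turned from −0.14) and 0.95, with a median difference of −0.80. On that scale 9 members were at least 1 higher in the mutant, against 12.9% of all genes. Centring on the span class put 3 wild-type members 2-fold below their class (11% of all genes). With the mutant 1 stood above and 3 below (13.7% and 17.2% of all genes), and the member medians were −0.16 and 0.47. A 1.5-fold limit gave 5 above and 11 below in the wild type (16.7% and 36.5% of all genes) and 14 above and 7 below in the mutant (12.7% and 50.3%). A pseudocount of 1 gave 2 mutant members above input (3.23% of all genes), a mutant median of 0.33 and a median difference of −0.46. It left 1 member at least 1 higher in the mutant (2.34% of all genes). Of 105 single-gene values under alternatives, 85 stayed past 2-fold on the same side and 0 turned. The minimum level is among these alternatives and cannot change the ratio of a single gene. Its values stayed by construction and say nothing about stability. Where a value moved, the cause was not tested beyond what the centring itself does.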

Other observations

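Pik3c2a carried, besides its own peaks, 1 mutant-list peak on the opposite strand that lay in no gene of the tables.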
